A study of Mus musculus with 23 samples.

Results

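Primary myoblasts at passage 0 were compared with embryonic stem cells, on 7 of the 23 arrays of a mouse expression study that followed the muscle lineage from stem cells to mature muscle. Samples were taken by their labels: 3 cultures labelled as passage zero myoblasts and 3 embryonic stem cell lines, of which E14tg2 had been run on 2 arrays, the second labelled a technical repeat, that were averaged into 1 sample. The myoblasts were C57BL/6J cells labelled male, freshly plated muscle precursors kept under proliferation conditions on collagen in a serum-rich medium with basic fibroblast growth factor. The stem cell lines were cGR8 (129Sv, male), RD1 (129X1/SvJ, male) and E14tg2 (129/Ola, sex not given in the labels), and their culture medium was not given in the sources used here. Each line is 1 cell line, no group carried a transgene per the labels, and strain and cell type cannot be told apart, because every myoblast sample was C57BL/6J and every line was of a 129 background. Nothing in the labels says whether the 3 myoblast samples came from separate animals, so the p-values measure only the spread between samples, pooled over the 7 groups of the series, which may be technical.

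Levels are log2 of the fluorescence of a gene's probe over the 75th percentile of all probes on the same array, so a level of 0 is a gene at that percentile and a difference of 1 is a fold of 2. Values are given in the order myoblast replicates 1, 2 and 3, then cGR8, RD1 and E14tg2. Levels of different genes come from different probes and are not compared with each other. A gene was tested when its probe was well above background on all samples of at least 1 group, which held for 22384 genes, and called at an adjusted p under 0.05 with a fold of at least 2. Where a gene was not well above background in any sample of 1 group, only a lower bound is given ("at least"): the mean of the brighter group over the lowest signal measurable on the dimmer group's arrays.

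Skeletal muscle precursors are committed by transcription factors of the MyoD family, basic helix-loop-helix proteins that bind E-box sequences, downstream of the paired-box factors Pax3 and Pax7 and with partners of the Eya and Mef2 families. Their targets build the sarcomere, the calcium release machinery and the acetylcholine receptor. Embryonic stem cells are held in a pluripotent state by a circuit around Oct4 (Pou5f1), Sox2 and Nanog, and in culture they are epithelial cells that keep many germline genes active.

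Of the 22384 genes tested, 3990 (17.8%) were higher in myoblasts and 4498 (20.1%) were lower, 37.9% in all. The groups did not overlap for 62.7% of genes, with the myoblasts above in 26.4% and below in 36.3%. The fold, or its lower bound, was at least 10 for 988 of the higher and 1144 of the lower genes. Of the genes called higher, 805 were not well above background in any stem cell line, and 1167 of those called lower were not above it in any myoblast sample. Over all these genes the log2 change had a median of -0.26, the value that list medians are to be read against. It was -0.08 after quantile normalization and -0.06 on the authors' own processed values. Within a group, the median SD of a gene was 0.280 in myoblasts and 0.319 in stem cells on the log2 scale. The 7 arrays had a 75th percentile of 574 to 765 fluorescence units and 53.8% to 60.1% of spots above background, and the 2 arrays of E14tg2 correlated across genes at r = 0.984.

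**Figure D1:**
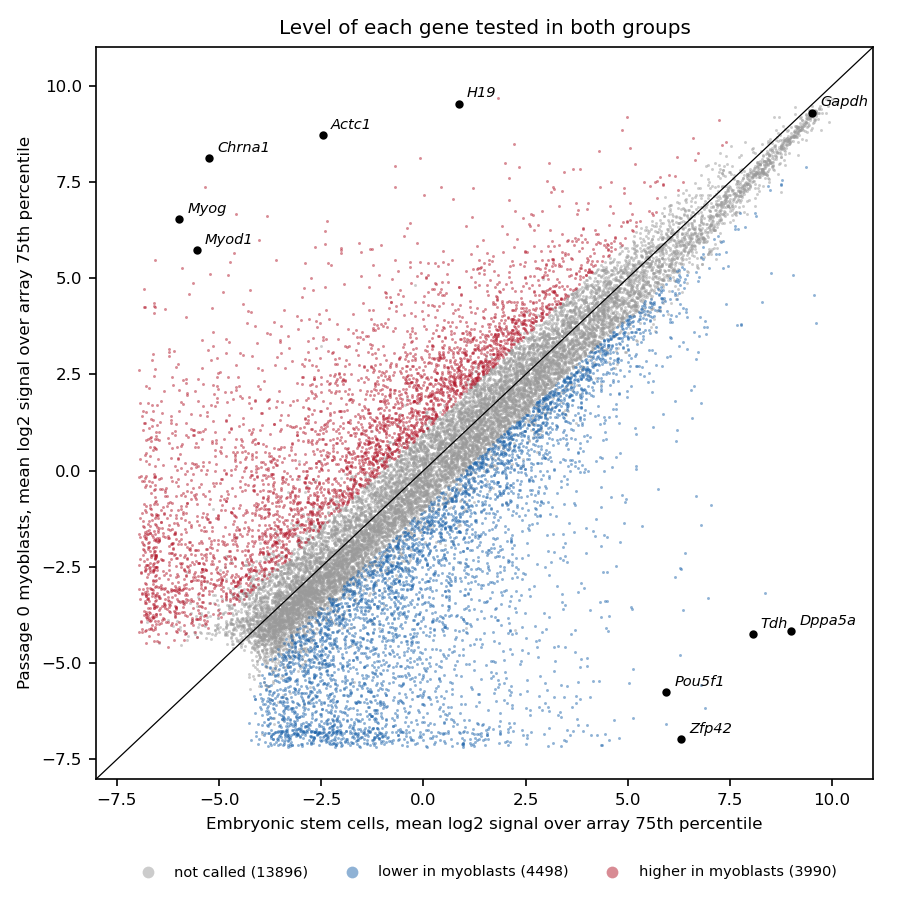
Mean level of each of the 22384 genes tested in stem cells (x axis) and in passage 0 myoblasts (y axis), both as log2 signal over the array's 75th percentile. Red points are the 3990 genes called higher in myoblasts, blue points the 4498 called lower and grey points those not called; the line marks equal levels, and the named genes include Chrna1 and Myog at the upper left and Zfp42 and Dppa5a at the lower right.

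Before the results, 2 myoblast samples went against their labels. Replicates 1 and 3, labelled male, had no signal well above background for the Y-linked genes Ddx3y, Eif2s3y and Uty: Ddx3y read -6.87 and -7.05 there and 1.68 in replicate 2. Xist, the RNA that silences one X chromosome in female cells, read 1.82 and 1.41 in replicates 1 and 3 against -2.71 in replicate 2. It was well above background in all 3 myoblast samples. Replicate 2 therefore had both Y-linked and Xist signal, and the reason was not tested. All 3 stem cell lines had Y-linked signal, with Ddx3y at 0.45, 1.37 and 1.29, and none had Xist well above background. Xist was at least 27.9-fold higher in the myoblast group, with an adjusted p of 0.027. With myoblast replicate 2 as the only myoblast sample, a comparison chosen after seeing the data that assumes this lone sample varies like the other groups, 3222 genes were higher and 2974 lower. X-linked genes were called higher in 17.5% and lower in 20.4% of 868 tested, next to 17.9% and 20.0% of 21323 autosomal genes, with all samples. With replicate 2 alone, the shares were 12% and 15.8% of X-linked genes and 13.9% and 13.1% of autosomal genes. Hprt, which the E14tg2 line is known to lack, read -2.12 in E14tg2 and 5.41 and 5.46 in the other lines.

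The cultures were checked against markers of the cell types they could hold. The 10 myoblast markers summed to 599.8 to 732 multiples of the 75th percentile in the myoblasts and to 2.56 to 3.54 in the stem cells, where Myod1, Myog, Myf5, Pax7 and Chrna1 were not well above background in any line. Of 10 stem cell markers, the 9 measured in every sample, Klf4 left out, summed to 893 to 1023 in the lines and to 2.67, 2.05 and 2.77 in myoblast replicates 1, 2 and 3, where Pou5f1, Sox2, Zfp42 and Fgf4 were not above background. Markers of other cell types were present in the myoblast cultures and differed between them. The 16 fibroblast markers summed to 50.3, 162 and 121 in myoblast replicates 1, 2 and 3, against 23.5 in cGR8 and 7.04 and 5.70 in RD1 and E14tg2, with Dpt and Tcf21 above background in no myoblast sample. The collagen genes Col1a2 and Col3a1 together gave 56.1% to 67.0% of the myoblast sums. The 13 smooth muscle and pericyte markers summed to 250.2, 465 and 308 in the myoblasts and 26.8 to 66.0 in the lines, with Myh11, Lmod1, Myocd and Kcnj8 above background in no myoblast sample. Acta2 and Des, the second also a myoblast marker, gave 81.0% to 82.9% of the myoblast sums, and without them the other 11 summed to 42.9, 87.5 and 58.6 in the myoblasts and to 56.3, 23.7 and 38.6 in the lines, which overlap. The 27 leukocyte markers summed to 118, 43.8 and 33.8 in myoblast replicates 1, 2 and 3 and to 20.6 to 36.5 in the lines, and 20 of them were highest in replicate 1 among the myoblasts. Itgam alone gave 43.2% to 57.8% of the sums in the lines. It overlapped between groups, at 4.10, 3.86 and 4.48 in myoblasts and 4.40, 3.89 and 3.16 in the lines. The 16 endothelial markers summed to 10.0 to 14.2 in the myoblasts and 43.2 to 51.2 in the lines. Egfl7, the highest of them in every line, read 1.59, 2.33 and 2.13 in myoblasts and 4.69, 4.71 and 4.92 in the lines. Pecam1, Flt1, Tek, Cldn5, Vwf and Robo4 were also called lower, and Kdr was not called. Emcn went the other way, at least 4.34-fold higher (adjusted p = 0.0011), and Cdh5 was above background in 2 myoblast samples and in no line. In such bulk samples, fewer cells of a type and less RNA per cell cannot be told apart.

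**Figure D2:**
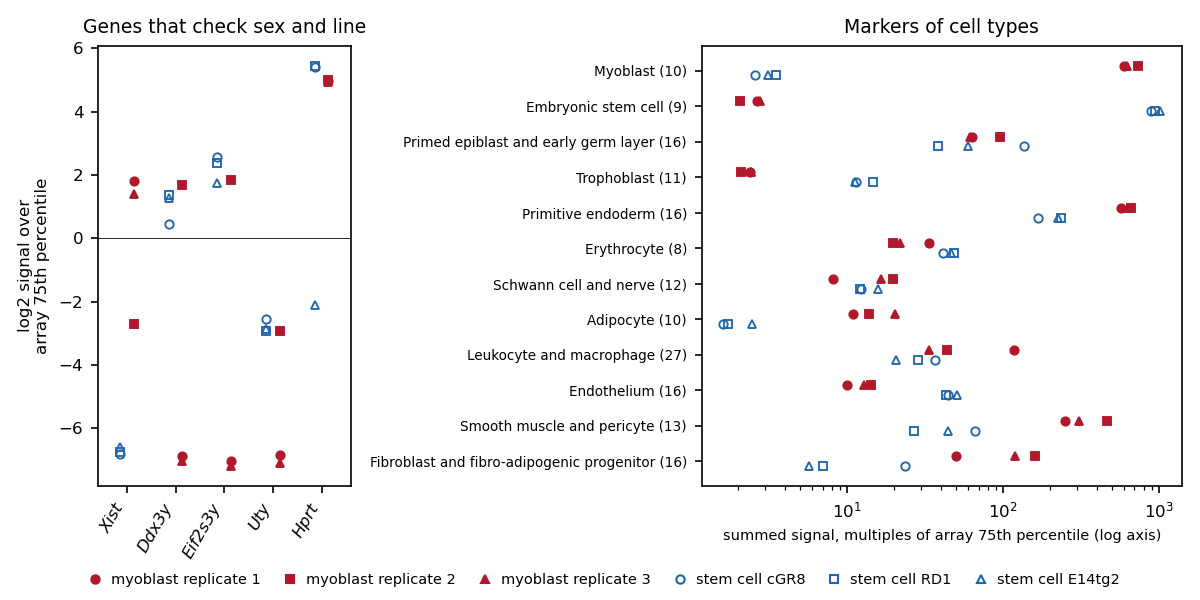
Left, log2 level of Xist, of the Y-linked genes Ddx3y, Eif2s3y and Uty and of Hprt in each of the 6 samples; right, summed signal of the markers of each cell type on a log axis, with the number of markers summed in brackets. Filled red symbols are myoblast replicates and open blue symbols stem cell lines; replicates 1 and 3 of the myoblasts lie with high Xist and the lowest Y-linked values, and E14tg2 alone is low for Hprt.

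All 5 muscle determination factors above background were higher in myoblasts, from a list of 6. Myod1, which commits cells to muscle, read 5.77, 5.78 and 5.64 in myoblasts and -4.57, -6.05 and -6.03 in the lines. Myog, which starts terminal differentiation, read 6.25, 6.77 and 6.57 in myoblasts and -5.74, -6.13 and -6.08 in the lines. Neither gene overlapped between groups, and the 3 myoblast samples lay close together for both. The bounds were at least 1278-fold for Myod1 (adjusted p = 4.6e-13; probe at chr7:53633956-53634015 on mm9) and at least 2289.6-fold for Myog (adjusted p = 1.2e-11; probe at chr1:136188874-136188933). Pax7, the marker of satellite cells, read 2.98, 2.99 and 2.63 in myoblasts and -5.21, -5.21 and -5.17 in the lines, at least 180.3-fold higher (adjusted p = 1.1e-10). Pax3, its embryonic paralog, read -1.11, -0.38 and -0.66 in myoblasts and -3.50, -4.45 and -3.83 in the lines and was 9.25-fold higher (adjusted p = 2.8e-05). Myf6, the late member of the family, read -2.85, -2.19 and -1.79 in myoblasts and -5.97, -6.16 and -5.19 in the lines and had a bound of at least 5.11-fold higher with an adjusted p of 0.018. That call was lost without RD1, without myoblast replicate 3, or with replicate 2 alone. Myf5, the early determination factor, was the list's exception: its probe read -6.76, -6.84 and -7.08 in myoblasts and -6.77, -6.83 and -6.54 in the lines, not well above background in any of the 6 samples.

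Among the partner and upstream regulators of myogenesis, 30 of 40 tested were higher and 3 lower, with a median log2 change of 2.62, or 2.19 with genes below background at their bound. Vgll2, a cofactor of TEAD proteins in muscle, read 3.79, 4.94 and 4.24 in myoblasts and -3.13, -5.70 and -4.43 in the lines, 429-fold higher (adjusted p = 1.1e-08). That fold was at least 461 without cGR8 and was 275 without RD1. Eya4, a phosphatase and transcriptional coactivator, was 236-fold higher, or at least 126-fold without cGR8, the only line above background. Nfix, which directs the fetal muscle programme, read 3.55, 4.04 and 3.70 in myoblasts and -2.89, -3.83 and -3.77 in the lines (153-fold higher, adjusted p = 7.7e-11). The Mef2 genes, which act with MyoD proteins on muscle promoters, moved apart: Mef2c read -0.95, 0.60 and 0.82 in myoblasts and -6.60, -6.79 and -5.72 in the lines, at least 27.6-fold higher with an adjusted p of 2.5e-08, Mef2d was 3.18-fold higher, and Mef2a read 1.17, -0.09 and 0.44 in myoblasts and 1.01, 0.92 and 0.42 in the lines, overlapping between groups (adjusted p = 0.68). Mef2b went the other way, at -3.98, -3.50 and -3.23 in myoblasts and 0.33, 0.55 and 0.98 in the lines, 18.3-fold lower (adjusted p = 4.6e-07). Msc, a bHLH repressor known as musculin, was above background in the lines only, at least 6.64-fold lower (adjusted p = 0.0012), or at least 11.7-fold without cGR8 and at least 4.25-fold without RD1. Tead2 and Eya1 were not called, at log2 changes of -0.10 and -0.89.

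**Figure D3:**
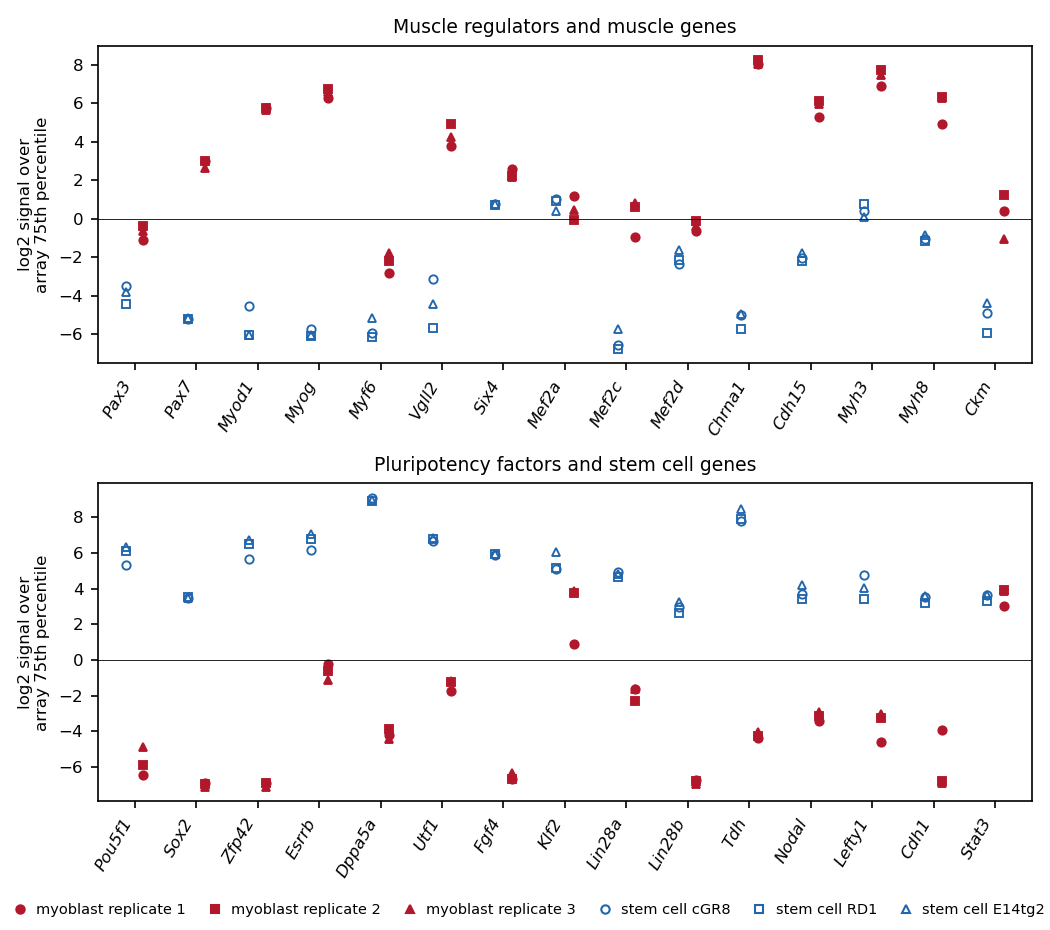
Log2 level over the array's 75th percentile of 15 muscle genes (top) and 15 pluripotency and stem cell genes (bottom) in each sample. Filled red symbols are the 3 myoblast replicates and open blue symbols the 3 stem cell lines; the groups are apart for all genes shown except Mef2a and Stat3, which overlap.

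An E-box of the MyoD family was counted in the promoters of the listed genes. The letters CAGCTG, which read the same on both strands, were searched in the 250 bases before each transcription start in RefSeq (GRCm38.p6). They occurred in 37 of the 97 muscle-list genes with a promoter in the table (38.1%; 139 genes in the lists), in 26 of 65 of those called higher (40%) and in 3979 of 27025 genes overall (14.7%). The pluripotency lists held it in 20.4% of 49 genes. The octamer ATGCAAAT, searched on both strands, occurred in 6.12% of those 49 genes, in 0 of the 97 muscle genes and in 1.81% of all genes. The TATA box TATAAA was in 18.6% of the muscle genes and 14.3% of all, and the Ets core CCGGAA in 5.15% and 13.6%. A match is a description of letters in a window, not a measured binding site. Of the promoters below, 3 belong to muscle genes with a large rise in myoblasts and 1 to a stem cell gene with a large fall. Capitals mark CAGCTG in the first 3 and the octamer, which lies on the other strand, in the last. The E-box counts beside the sequences are of CAGCTG only, and other forms of the E-box were not searched or marked.
Chrna1 promoter, chr2:73580339-73580588, minus strand, 2 E-boxes: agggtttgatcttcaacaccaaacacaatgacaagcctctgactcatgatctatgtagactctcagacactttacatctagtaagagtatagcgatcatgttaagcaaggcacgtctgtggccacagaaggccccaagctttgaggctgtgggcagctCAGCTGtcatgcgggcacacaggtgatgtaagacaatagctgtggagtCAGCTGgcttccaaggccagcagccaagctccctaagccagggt
Chrng promoter, chr1:87205561-87205810, plus strand, 2 E-boxes: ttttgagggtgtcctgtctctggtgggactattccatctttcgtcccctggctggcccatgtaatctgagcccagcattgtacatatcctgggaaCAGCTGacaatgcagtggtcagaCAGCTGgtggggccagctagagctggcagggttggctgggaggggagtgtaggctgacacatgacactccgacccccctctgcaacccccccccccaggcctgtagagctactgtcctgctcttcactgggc
Acta1 promoter, chr8:123894776-123895025, minus strand, 1 E-box: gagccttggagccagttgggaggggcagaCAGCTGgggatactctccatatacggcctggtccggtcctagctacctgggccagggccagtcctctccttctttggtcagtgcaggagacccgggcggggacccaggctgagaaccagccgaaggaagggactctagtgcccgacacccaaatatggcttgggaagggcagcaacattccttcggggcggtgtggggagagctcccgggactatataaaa
Zfp42 promoter, chr8:43307010-43307259, minus strand, 1 octamer: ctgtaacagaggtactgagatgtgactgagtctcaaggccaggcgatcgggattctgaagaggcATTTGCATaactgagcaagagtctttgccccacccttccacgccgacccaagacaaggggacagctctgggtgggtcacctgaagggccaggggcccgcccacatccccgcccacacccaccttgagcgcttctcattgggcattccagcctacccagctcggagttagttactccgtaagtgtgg
The CAGCTG matches began 92 and 44 bases before the start in Chrna1 and 155 and 132 bases before it in Chrng.

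The acetylcholine receptor was among the largest rises of all. Chrna1, its alpha subunit, read 8.04, 8.26 and 8.06 in myoblasts and -5.01, -5.76 and -4.97 in the lines, at least 6880.5-fold higher (adjusted p = 3.9e-14; probe at chr2:73404112-73404171 on mm9), the largest bound among genes named in RefSeq. Chrnd, the delta subunit, read 5.80, 6.19 and 5.97 in myoblasts and -3.05, -4.53 and -4.51 in the lines and was 1035-fold higher (adjusted p = 1.5e-11), with 1 of the 3 lines above background. Musk, the kinase that clusters the receptor, was at least 201-fold higher (adjusted p = 7.4e-12). Of 17 junction genes tested, 13 were higher and 2 lower, with a median log2 change of 2.46, or 2.05 with bounds. The 2 lower genes were Agrn, the nerve-derived organiser of the junction, at 3.75, 3.69 and 3.61 in myoblasts and 5.26, 5.25 and 5.17 in the lines (2.91-fold lower, adjusted p = 0.0084), and Etv5, an Ets factor, 2.85-fold lower (adjusted p = 0.0036). Both calls were lost with myoblast replicate 2 alone.

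Sarcomere genes were higher in the myoblasts, although the labels give these as proliferating cultures. Of 23 thin filament genes tested, 20 were higher and 1 lower (median log2 change 6.57, or 6.38 with bounds), of 24 thick filament genes 17 and 3 (4.20, or 3.83), and of 34 Z disc and scaffold genes 26 and 1 (4.48, or 4.23). Actc1, cardiac actin and the early actin of embryonic muscle, read 8.17, 9.23 and 8.74 in myoblasts and -1.0, -3.92 and -2.49 in the lines, 2323-fold higher (log2 change 11.18, SE 0.78, adjusted p = 3.4e-09). Every stem cell value lay far below every myoblast value, the lines spread more widely than the myoblasts, and the fold was 3870 without cGR8 and 1405 without RD1. Acta1, skeletal actin, was 267-fold higher (adjusted p = 8.7e-10). Tnni1, the slow troponin I, read 5.37, 7.19 and 6.90 in myoblasts and -2.55, -2.15 and -2.35 in the lines (458-fold higher, adjusted p = 1.5e-05). Tnnc1, the slow and cardiac troponin C, was 542-fold higher, Tnnt2, the cardiac and embryonic troponin T, 1372-fold higher, and Tnnt3, the fast troponin T, 2443-fold higher. In each of these 6 genes myoblast replicate 1 was the lowest of the 3: Tnnc1 read 4.48 there against 6.16 and 5.77.

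Several myosin genes were higher in myoblasts. Myh3, embryonic myosin, read 6.89, 7.75 and 7.46 in myoblasts and 0.40, 0.76 and 0.11 in the lines and was 123-fold higher (adjusted p = 8.1e-07). Myh8, perinatal myosin, was 119-fold higher (adjusted p = 2.4e-09). Myh1, a fast adult myosin, read 4.09, 4.76 and 5.28 in myoblasts and -6.87, -6.95 and -6.68 in the lines, at least 648-fold higher (adjusted p = 2.1e-11). These near-identical genes can share signal between probes, so the split among them is uncertain. Myl1, the fast alkali light chain, read 6.54, 7.64 and 7.88 in myoblasts and -6.60, -4.38 and -5.07 in the lines (at least 3718-fold higher, adjusted p = 2.0e-11). Against this trend, the cardiac genes Myh6 and Mybpc3 and the fast skeletal gene Mybpc2 were lower. Myh6 read -2.91, -1.28 and -1.41 in myoblasts and 2.86, 2.09 and 2.67 in the lines, 21.2-fold lower (adjusted p = 0.00041). Mybpc3, cardiac myosin binding protein C, was at least 14.5-fold lower (adjusted p = 6.9e-06). Mybpc2 was above background in no myoblast sample and at least 12.7-fold lower (adjusted p = 0.0039). Tnni3, cardiac troponin I, was 3.63-fold lower (adjusted p = 0.0029), a call lost with replicate 2 alone. The ventricular light chains Myl2 and Myl3 overlapped between groups and were not called. Ankrd1, a stretch-responsive partner of titin, read 6.12, 5.93 and 5.60 in myoblasts and -1.94, -2.69 and -2.56 in the lines, 311-fold higher (adjusted p = 3.6e-12), and Tcap, which caps titin, was 283-fold higher.

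Genes of calcium handling, fusion and the sarcolemma followed. Of 27 excitation-contraction genes tested, 20 were higher and 0 lower by limma (median log2 change 3.92), with 0 lower at an unadjusted p under 0.05. Cav3, the muscle caveolin, read 4.50, 6.04 and 5.90 in myoblasts and -6.59, -6.72 and -6.41 in the lines, at least 1104-fold higher (adjusted p = 1.5e-11). Sln, sarcolipin, an inhibitor of the calcium pump, spread widely at -0.22, 2.87 and 3.93 in myoblasts and -6.95, -6.98 and -6.46 in the lines and was at least 113-fold higher (adjusted p = 5.1e-06), or at least 262-fold without myoblast replicate 1 and at least 61.9-fold without replicate 3. Among 22 fusion genes, 14 were higher and 1 lower (2.24). Mymk, the fusogen myomaker, read 3.96, 5.30 and 4.77 in myoblasts and -1.85, -3.27 and -3.01 in the lines, 167-fold higher (adjusted p = 1.1e-08). Mymx, its partner myomixer, read 5.36, 6.05 and 6.09 in myoblasts and 4.33, 5.74 and 5.57 in the lines and overlapped between groups (adjusted p = 0.43). Adgrb1, a receptor for dying cells that promotes fusion, was 22.5-fold lower (adjusted p = 1.5e-06). Of 23 genes of the dystrophin complex, 13 were higher and 2 lower (1.49). Both lower calls, Sntb2 and Nos1, were lost without myoblast replicate 2, and also Sntb2 without E14tg2 and Nos1 without RD1. Sgca, alpha-sarcoglycan, was 204-fold higher and Sspn, sarcospan, 487-fold higher, while Dag1, dystroglycan, and Utrn, utrophin, overlapped between groups, at log2 changes of 0.08 and -0.43.

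Surface and niche genes of satellite cells were higher in 17 of 26 and lower in 4 (median log2 change 2.56). Cdh15, M-cadherin, read 5.28, 6.13 and 5.95 in myoblasts and -2.05, -2.21 and -1.79 in the lines, 223-fold higher (adjusted p = 5.5e-11). Megf10, an engulfment receptor of satellite cells, was 2290.2-fold higher, or at least 927-fold without cGR8, the only line above background. Vcam1, the adhesion molecule used to sort satellite cells, was 444-fold higher, or at least 167-fold without cGR8. Calcr, the calcitonin receptor of quiescent satellite cells, was the reverse: it was not well above background in any myoblast sample and at least 4.39-fold lower (adjusted p = 7.3e-05), or at least 2.66-fold without cGR8 and at least 6.86-fold without RD1. Icam1 was 26.5-fold lower (adjusted p = 1.6e-05), and the tetraspanin Cd9 read 3.98, 4.13 and 3.98 in myoblasts and 3.48, 4.39 and 4.31 in the lines, overlapping (adjusted p = 0.95).

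Genes of muscle energy supply were called higher more often than lower. Of 26 creatine, glycogen and supply genes, 17 were higher and 5 lower (median log2 change 1.67). Ckm, muscle creatine kinase, read 0.37, 1.21 and -1.07 in myoblasts and -4.90, -5.93 and -4.37 in the lines, at least 27.3-fold higher (adjusted p = 0.00011), or at least 41.9-fold without myoblast replicate 3. Mb, myoglobin, was 178-fold higher (adjusted p = 4.8e-08). Phkg1, the muscle catalytic subunit of phosphorylase kinase, went the other way at -3.89, -4.38 and -3.62 in myoblasts and -0.63, -0.83 and -0.85 in the lines, 9.14-fold lower (adjusted p = 7.4e-05). Of the muscle forms of cytochrome oxidase subunits, Cox6a2 was 186-fold and Cox8b at least 260.3-fold higher, while Cox7a1 read 1.43, 1.46 and 0.95 in myoblasts and 3.56, 3.42 and 3.45 in the lines and was 4.58-fold lower (adjusted p = 0.026), a call lost on leaving out any sample. Of 48 respiratory genes, 6 were higher and 3 lower (median 0.30). The 6 higher became 3 without cGR8 or with replicate 2 alone. Aldoa, the muscle aldolase, read 9.08, 9.57 and 9.09 in myoblasts and 9.12, 9.07 and 9.08 in the lines and overlapped. Among 31 glycolysis genes, 4 were higher and 10 lower (-0.40). Slc2a3, the high-affinity glucose transporter GLUT3, read -2.30, -2.02 and -2.09 in myoblasts and 5.84, 6.73 and 6.64 in the lines, 373-fold lower (adjusted p = 1.8e-08). Aldoc was 27.4-fold lower and Pdk1, a brake on pyruvate oxidation, 11.5-fold lower, while Pdk4, another kinase of that family, was 7.99-fold higher. Gapdh and Ldha were not called, at log2 changes of -0.21 and -0.07.

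Pluripotency factors were lower almost throughout: 27 of 32 tested fell and 0 rose by limma (0 higher at an unadjusted p under 0.05), with a median log2 change of -7.46, or -5.68 with genes below background at their bound. Pou5f1 read -6.44, -5.93 and -4.90 in myoblasts and 5.34, 6.14 and 6.35 in the lines, at least 1745-fold lower (adjusted p = 9.6e-09; probe at chr17:35647280-35647340 on mm9). Sox2, its partner on DNA, read -6.93, -6.97 and -7.13 in myoblasts and 3.49, 3.52 and 3.47 in the lines, at least 324-fold lower (adjusted p = 2.9e-10; probe at chr3:34550773-34550832). Zfp42, the stem cell marker Rex1, read -6.91, -6.90 and -7.13 in myoblasts and 5.67, 6.52 and 6.73 in the lines, at least 2279-fold lower (adjusted p = 2.9e-10). None of these was well above background in any myoblast sample. Esrrb, a naive-state nuclear receptor, stayed measurable at -0.25, -0.60 and -1.13 in myoblasts and 6.15, 6.79 and 7.08 in the lines, 161-fold lower (adjusted p = 2.7e-08). Klf2 read 0.87, 3.73 and 3.90 in myoblasts and 5.10, 5.14 and 6.06 in the lines, 6.06-fold lower (adjusted p = 0.0025), with replicate 1 the lowest myoblast sample. Without that replicate the fold was 3.07, and with replicate 2 alone the call was lost. Klf4 read 1.24 and 3.32 in myoblast replicates 1 and 3 and 3.07, 3.68 and 3.75 in the lines and was not tested, since its spot on replicate 2 was an outlier and was left out. Stat3, the effector of LIF signalling, overlapped at 3.00, 3.94 and 3.89 in myoblasts and 3.66, 3.29 and 3.64 in the lines (adjusted p = 0.88).

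Nanog gave opposite pictures on its probes. The brighter probe over the whole series, at chr6:122663676-122663735 (mm9), read -1.06, -0.95 and -0.69 in myoblasts and -1.51, -2.37 and -2.52 in the lines, with a log2 change of 1.23 that was not called (adjusted p = 0.11). The other, at chr6:122664590-122664649, read -7.04, -7.01 and -7.08 in myoblasts, not well above background, and 5.57, 6.56 and 6.09 in the lines, at least 1940-fold lower (adjusted p = 1.5e-11). Of 124 named genes with several tested probes, 21 were called differently between probes and 2, Synm and Syne1, in opposite directions.

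Other stem cell genes fell as widely, 32 of 38 against 2 that rose (median log2 change -6.48, or -6.14 with bounds). Dppa5a, an RNA-binding protein of pluripotent cells, read -4.19, -3.86 and -4.45 in myoblasts and 9.10, 8.90 and 8.99 in the lines, 9187-fold lower (log2 change -13.16, SE 0.60, adjusted p = 2.4e-11), the largest fold among RefSeq-named genes that were lower and above background in every sample of both groups. Tdh, the threonine dehydrogenase on which mouse stem cells depend, read -4.36, -4.30 and -4.05 in myoblasts and 7.81, 7.89 and 8.45 in the lines, 5002-fold lower (adjusted p = 1.1e-10). Both were above background in all 3 myoblast samples, far below every line. Utf1, a chromatin factor, was 290.5-fold lower, and Rex2, a zinc finger gene, 1233-fold lower. Fgf4, the autocrine growth factor of stem cells, was at least 1761-fold lower (adjusted p = 3.7e-10), and Trh, thyrotropin-releasing hormone, at least 3414-fold lower (adjusted p = 2.6e-09). Lin28a, which blocks let-7 processing, read -1.65, -2.28 and -1.62 in myoblasts and 4.93, 4.68 and 4.81 in the lines, 101-fold lower, and its paralog Lin28b was at least 223-fold lower. The 2 risers were Spp1, osteopontin, at 6.55, 6.93 and 7.11 in myoblasts and 2.92, 3.84 and 3.22 in the lines (11.6-fold higher, adjusted p = 0.00079), and Fut4, a fucosyltransferase, 5.08-fold higher (adjusted p = 0.00069).

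Genes of the 2-cell embryo and of the germline were mostly lower too. Of 10 genes of the 2-cell stage above background, 7 were lower and 0 higher by limma (median log2 change -5.14, or -3.93 with bounds), with 0 higher at an unadjusted p under 0.05. Zscan4f read -6.78, -6.83 and -5.70 in myoblasts and 3.54, 3.67 and 4.04 in the lines, at least 387-fold lower (adjusted p = 7.2e-10), and Zscan4a was at least 153-fold lower; members of this family are near copies of each other, so their probes may share signal. Among 33 germline genes, 28 were lower and 1 higher (-4.94, or -3.83). Rhox5, a homeobox gene, was 1014-fold lower, or 629-fold without myoblast replicate 1. Tex19.1, a retrotransposon restrainer, read -5.24, -3.69 and -3.60 in myoblasts and 4.51, 4.78 and 4.23 in the lines, 412-fold lower (adjusted p = 5.7e-09). Tdrd7, a germ granule protein, was the exception at 1.5, 1.94 and 2.25 in myoblasts and -1.75, -1.73 and -2.54 in the lines, 15-fold higher (adjusted p = 7.3e-09).

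Threonine, glycine and one-carbon enzymes beyond Tdh fell in part, 10 of 28 against 3 that rose (median log2 change -0.37). Gldc, glycine decarboxylase, read -1.82, -1.74 and -1.49 in myoblasts and 4.85, 4.14 and 4.26 in the lines, 68.5-fold lower (adjusted p = 9.3e-09). Cbs, which feeds transsulfuration, was 59.8-fold lower (adjusted p = 3.0e-08). Phgdh, the entry to serine synthesis, read 5.12, 5.69 and 5.32 in myoblasts and 4.82, 5.12 and 5.39 in the lines and overlapped (adjusted p = 0.64). Mthfd2l and Aldh1l2, mitochondrial folate enzymes, were 5.36-fold and 7.04-fold higher.

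Of the DNA methyltransferase genes, Dnmt3b and Dnmt3l were lower in myoblasts, and Dnmt1 and Dnmt3a did not pass the test. Dnmt3b, a de novo methyltransferase, read -1.54, -1.24 and -1.55 in myoblasts and 6.05, 4.68 and 5.30 in the lines, 110.3-fold lower (log2 change -6.78, SE 0.32, adjusted p = 3.8e-11). Dnmt3l, its catalytically inactive cofactor, read -3.73, -2.05 and -2.47 in myoblasts and 5.38, 6.65 and 6.43 in the lines, 479.5-fold lower (adjusted p = 9.2e-10). For both genes the 3 myoblast samples lay well below every line. Dnmt1, the maintenance enzyme, read 1.68, 1.76 and 1.28 in myoblasts and 1.70, 1.75 and 2.16 in the lines and overlapped (log2 change -0.30, SE 0.31, adjusted p = 0.48), and Dnmt3a was not called at -0.41, -0.55 and -0.17 in myoblasts and 0.26, -0.00 and 0.02 in the lines (adjusted p = 0.43). Uhrf1, which guides Dnmt1 to replicating DNA, read 4.63, 4.18 and 4.04 in myoblasts and 5.13, 5.38 and 5.27 in the lines, with a log2 change of -0.98 that was not called on the brightest probe (adjusted p = 0.23); its other probe was called. Of the readers of methylated DNA, Mbd2 was 6.61-fold higher (adjusted p = 1.4e-06) and Zbtb4 14.5-fold higher (adjusted p = 2.7e-07). Of the genes related to Mbd2, Mbd4 was 4.17-fold lower (adjusted p = 0.00032), Mbd1 was 3.67-fold higher and Mbd3 overlapped. Of the 17 genes in the list, 4 were higher and 4 lower (median log2 change -0.02), next to 17.8% higher and 20.1% lower of all genes tested.

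On the demethylation side, 10 of 26 genes were lower and 5 higher (median log2 change -0.79), next to 20.1% lower and 17.8% higher of all genes tested. Tet1, which oxidises methylcytosine, read -1.90, -2.15 and -1.89 in myoblasts and 3.31, 3.44 and 3.51 in the lines, 42.1-fold lower (log2 change -5.40, SE 0.38, adjusted p = 3.5e-09). Tet2 read 0.25, -0.21 and 0.30 in myoblasts and 1.55, 2.91 and 2.87 in the lines, 5.03-fold lower (adjusted p = 0.011), a call lost with replicate 2 alone and under quantile normalization. Tet3 overlapped at -1.89, -1.25 and -1.50 in myoblasts and -1.14, -1.45 and -1.23 in the lines (adjusted p = 0.57). Neil2, a glycosylase of base excision repair, was at least 74.5-fold lower, and Tdg, which removes oxidised methylcytosine, 2.25-fold lower (adjusted p = 0.0034), a call lost without myoblast replicate 3. Apobec2, the muscle member of the deaminase family, was the reverse at 0.15, 0.96 and 1.02 in myoblasts and -4.89, -3.58 and -3.64 in the lines, 26.9-fold higher (adjusted p = 2.9e-08), and Gadd45g was 5.16-fold higher.

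**Figure D4:**
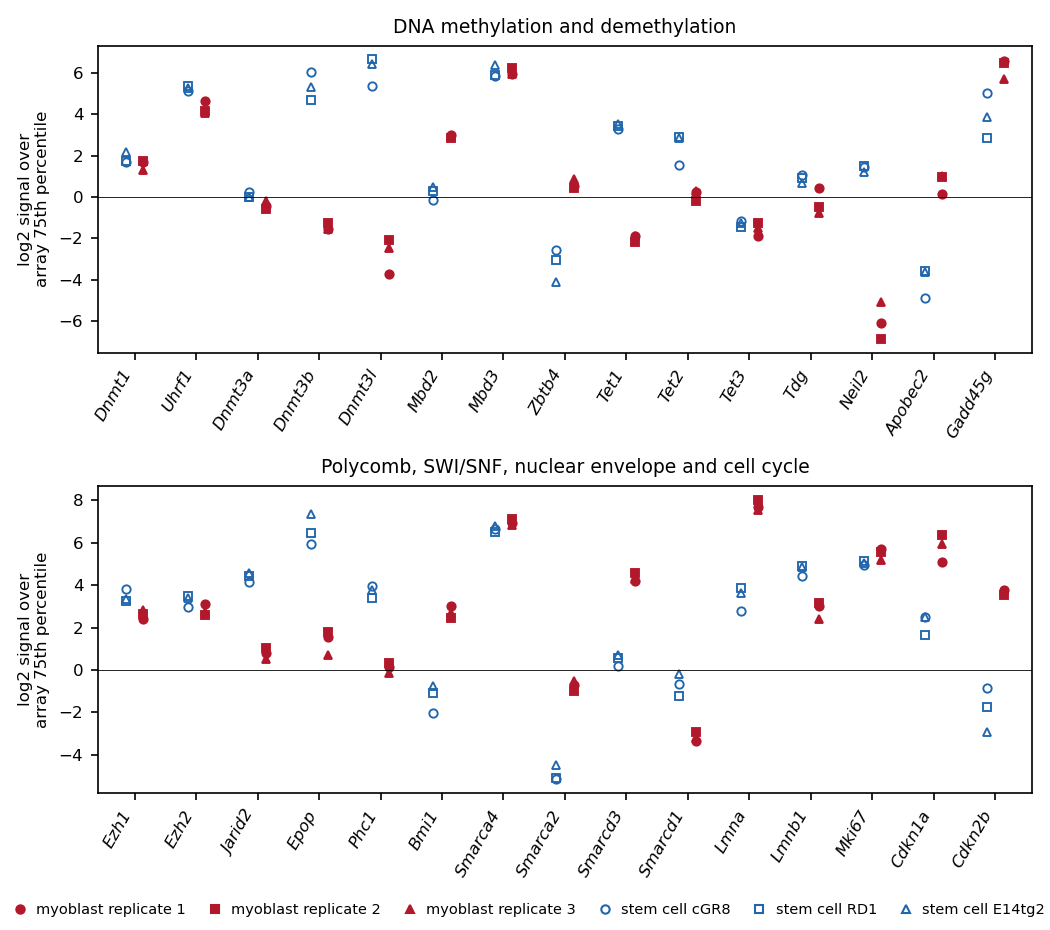
Log2 level over the array's 75th percentile of genes of DNA methylation and demethylation (top) and of Polycomb, SWI/SNF, nuclear envelope and cell cycle genes (bottom) in each sample. Filled red symbols are myoblast replicates and open blue symbols stem cell lines; Dnmt3b, Dnmt3l, Tet1 and Neil2 lie apart by over 3 log2 units while Dnmt1, Mbd3 and Tet3 overlap.

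Subunits of chromatin complexes were called in both directions, often within 1 complex, next to 17.8% higher and 20.1% lower of all genes tested. Among 31 Polycomb genes, 10 were lower and 5 higher (median log2 change -0.61). Epop and Jarid2, accessory subunits of the H3K27 methylating complex in stem cells, were 37.3-fold and 12.1-fold lower, and Phc1, a polyhomeotic subunit, read 0.15, 0.33 and -0.12 in myoblasts and 3.98, 3.39 and 3.75 in the lines (12-fold lower, adjusted p = 3.3e-09). Bmi1, a subunit of the ubiquitinating complex, was 15.8-fold higher. The catalytic subunit Ezh2 overlapped at 3.09, 2.60 and 2.72 in myoblasts and 2.96, 3.50 and 3.38 in the lines (adjusted p = 0.23), and Ezh1 was not called at a log2 change of -0.87, under the fold of 2. In SWI/SNF, 6 of 25 subunits were higher and 3 lower (0.15). Smarcd3, the BAF60C subunit of heart and muscle, read 4.21, 4.57 and 4.31 in myoblasts and 0.17, 0.57 and 0.69 in the lines, 14.8-fold higher (adjusted p = 2.2e-08), while its paralog Smarcd1, BAF60A, read -3.35, -2.90 and -3.19 in myoblasts and -0.67, -1.24 and -0.17 in the lines, 5.48-fold lower (adjusted p = 0.00041). Smarca2, the BRM ATPase, was at least 14.5-fold higher (adjusted p = 8.8e-10), and Smarca4, the BRG1 ATPase, was not called at 6.93, 7.13 and 6.83 in myoblasts and 6.63, 6.51 and 6.78 in the lines. At the nuclear envelope, 9 of 21 genes were higher and 2 lower (0.88). Lmna, lamin A/C of differentiated cells, read 7.68, 8.01 and 7.55 in myoblasts and 2.80, 3.88 and 3.64 in the lines, 19.8-fold higher (adjusted p = 4.1e-08), and Lmnb1 was 3.69-fold lower (adjusted p = 0.00015).

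Hox genes, which record position along the body axis, were higher in 24 of 30 tested and lower in 1 (median log2 change 4.17, or 3.00 with bounds). Hoxa11, a gene of the limb and posterior trunk, read 2.54, 2.42 and 2.35 in myoblasts and -6.20, -6.59 and -5.63 in the lines, at least 134-fold higher (adjusted p = 1.3e-08). Hoxc9 read 2.61, 1.98 and 2.45 in myoblasts and -6.58, -5.99 and -5.08 in the lines (at least 126-fold higher, adjusted p = 2.3e-06). Hoxc6 was 70-fold higher, or at least 59.5-fold without cGR8. Hoxb13 was the only member called lower, at least 3.14-fold (adjusted p = 0.019). Its call did not hold in some settings, among them without E14tg2 and without myoblast replicate 3, and its bound was at least 3.03-fold lower with replicate 2 alone. With replicate 2 alone, 15 Hox genes were called higher.

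Imprinted genes were called in both directions, 14 higher and 8 lower of 32 (median log2 change 0.32), next to 17.8% higher and 20.1% lower of all genes tested. H19, an imprinted noncoding RNA abundant in muscle, read 9.56, 9.63 and 9.39 in myoblasts and 0.51, 2.49 and -0.41 in the lines, 406-fold higher (log2 change 8.66, SE 0.68, adjusted p = 1.5e-08). The lines spread widely, and the fold was 714 without RD1 and 261 without E14tg2. Igf2, its neighbour and a fetal growth factor, read 1.99, 4.13 and 3.01 in myoblasts and -3.84, -3.88 and -2.75 in the lines, 92.4-fold higher (adjusted p = 2.7e-08). Plagl1, a zinc finger regulator of that network, was 109-fold higher, or 164-fold without RD1. Of the placental growth genes, Phlda2 was at least 82.2-fold lower and Ascl2 was 43-fold lower. Meg3 and Cdkn1c overlapped between groups, with Cdkn1c at 1.81, 4.53 and 4.55 in myoblasts and 3.19, 2.72 and 4.83 in the lines. Around Igf2, 8 of 16 genes of the insulin-like growth factor axis were higher and 4 lower (1.20). Igfbp5, a binding protein of muscle precursors, was 331-fold higher, or 218-fold without E14tg2 and at least 229-fold without cGR8. Irs1, the receptor substrate, was 77.2-fold higher. Igf2bp1, an RNA-binding protein of fetal cells, read -4.28, -2.66 and -3.31 in myoblasts and 3.96, 4.39 and 4.64 in the lines, 215-fold lower (adjusted p = 2.4e-07).

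Ligands and antagonists of signalling pathways were called in both directions, next to 17.8% higher and 20.1% lower of all genes tested. In the TGF-beta, Nodal and BMP family, 30 of 47 genes were higher and 11 lower (median log2 change 1.91). Nodal read -3.43, -3.12 and -2.90 in myoblasts and 3.72, 3.44 and 4.20 in the lines, 122-fold lower (adjusted p = 1.1e-10), and its antagonist Lefty1 was 208-fold lower (adjusted p = 2.7e-08). The BMP antagonist Grem1 was 186-fold higher, with 1 line, cGR8, above background, and at least 201-fold higher without cGR8. Inhba, the activin A subunit, read 2.51, 4.74 and 4.39 in myoblasts and 0.82, -4.07 and -4.64 in the lines, 91.1-fold higher (adjusted p = 0.00024), with cGR8 far above the other lines, and the fold was 302 without cGR8. It was 55.2 without RD1 and 45.4 without E14tg2. Smad2, Smad4 and Smad7 were not called. In the FGF pathway, 9 of 29 were higher and 6 lower (0.17). Fgfr4, the receptor of myoblasts, read 3.64, 4.43 and 4.21 in myoblasts and -0.31, -0.12 and -0.46 in the lines, 21-fold higher (adjusted p = 1.3e-07), and Fgf21, an endocrine ligand, was at least 45-fold higher. Fgf15 was 26.2-fold lower. The feedback phosphatase Dusp6 was not called, at a log2 change of 0.69.

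Notch genes were higher in 14 of 29 and lower in 6 (median log2 change 0.91), next to 17.8% higher and 20.1% lower of all genes tested. Hes6, which antagonises Notch effectors and promotes myogenesis, read 7.36, 7.87 and 7.35 in myoblasts and 3.72, 2.19 and 3.19 in the lines, 22.6-fold higher (adjusted p = 1.3e-07). Maml3, a coactivator, was 51.8-fold higher, or at least 50.8-fold without cGR8. Mfng, a glycosyltransferase that tunes the receptors, read -2.64, -3.30 and -3.49 in myoblasts and 2.00, 1.80 and 1.88 in the lines, 32.8-fold lower (adjusted p = 8.9e-07). Rbpj, the DNA-binding effector, and Notch3 overlapped. Of 38 Wnt genes, 12 were higher and 10 lower (0.11). Fzd1, a receptor, read 1.47, 1.54 and 1.46 in myoblasts and -3.55, -4.61 and -3.75 in the lines, 44-fold higher (adjusted p = 2.8e-09), Wls, the sorting receptor for Wnt secretion, was 33.5-fold higher, and the agonist Rspo1 and the antagonist Sfrp4 were 50.2-fold and 50.1-fold lower. Ctnnb1, beta-catenin, was not called at 4.32, 4.04 and 3.96 in myoblasts and 3.43, 3.83 and 3.87 in the lines. Of 22 LIF and JAK-STAT genes, 7 were higher and 6 lower (0.12). Jak2 was 6.66-fold higher and Jak3 11.8-fold lower. Socs3, the feedback inhibitor of LIF signalling, read 0.32, 1.98 and 0.71 in myoblasts and 3.88, 4.69 and 4.78 in the lines, 10.9-fold lower (adjusted p = 0.00025), a call lost with replicate 2 alone. Lifr was not called on its brightest probe (log2 change -1.59, adjusted p = 0.065), and other probes and 6 alternative settings called it lower.

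Epithelial junction genes were lower in 33 of 42 and higher in 2 (median log2 change -4.28, or -3.85 with bounds). Cdh1, E-cadherin, read -3.91, -6.80 and -6.90 in myoblasts and 3.54, 3.19 and 3.61 in the lines, 636-fold lower (log2 change -9.31, SE 0.76, adjusted p = 2.2e-08), with myoblast replicate 1 above the other 2, and at least 322-fold lower without it. Krt8, a keratin of simple epithelia, had the same outlying replicate at 0.99, -4.40 and -5.37 in myoblasts and 3.81, 3.88 and 3.87 in the lines, 109.8-fold lower (adjusted p = 0.00025). Its fold was 427 without replicate 1, 65.9 without replicate 2 and 47.1 without replicate 3. Tjp3, a tight junction scaffold, was 109-fold lower, and its paralog Tjp1 overlapped (log2 change 0.25). The risers were Pkp1, a desmosomal plakophilin, 12.7-fold higher, and Marveld2, tricellulin, 5.38-fold higher. Of 34 mesenchymal genes, 26 were higher and 0 lower by limma (median log2 change 3.96), with 1 lower at an unadjusted p under 0.05. Fibroblast marker sums were also higher in the myoblast samples, and their part in the result was not tested. Cdh2, N-cadherin, read 5.37, 5.37 and 5.22 in myoblasts and 0.87, 0.08 and 0.12 in the lines, 31.2-fold higher (adjusted p = 2.0e-07). Vim, vimentin, read 7.95, 7.65 and 7.89 in myoblasts and 3.48, 3.91 and 3.59 in the lines, 18-fold higher (adjusted p = 1.0e-08). S100a4 read 7.87, 8.22 and 7.66 in myoblasts and 2.85, -2.52 and -2.44 in the lines, 394-fold higher (adjusted p = 2.8e-06), with cGR8 far above the other lines. The fold was 1346 without cGR8 and 210 or 216 without RD1 or E14tg2. Fn1, fibronectin, was high in both groups and overlapped.

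Matrix genes were mostly higher in myoblasts. Of 46 glycoproteins and proteoglycans, 27 were higher and 5 lower (median log2 change 1.81), of 31 collagens 15 and 3 (1.32), of 22 integrins 11 and 2 (1.36) and of 33 proteases and inhibitors 22 and 1 (2.31). Itga7, the laminin receptor subunit of muscle, read 6.31, 6.46 and 6.17 in myoblasts and -0.72, 0.17 and -0.61 in the lines, 104-fold higher (adjusted p = 1.2e-11). Lama1, the laminin chain of early embryos, read -6.61, -6.70 and -6.09 in myoblasts and 3.69, 5.21 and 5.08 in the lines, at least 728-fold lower (adjusted p = 1.3e-09). Adamts4, a proteoglycan-cleaving protease, was at least 509.9-fold higher (adjusted p = 4.3e-13), and Timp2, an inhibitor of metalloproteinases, 69.8-fold higher, or 106.8-fold without cGR8. Dcn, decorin, a proteoglycan of fibroblasts, read 0.99, 4.74 and 4.25 in myoblasts and -3.04, -4.85 and -4.31 in the lines, with replicate 1 far below the other myoblasts, as for the fibroblast marker sum. It was 168-fold higher (adjusted p = 1.3e-07), 379-fold without replicate 1 and 103-fold without replicate 2. Col3a1 read 4.33, 4.11 and 3.75 in myoblasts and -1.18, -3.01 and -3.49 in the lines (98.5-fold higher, adjusted p = 4.6e-08), or 159-fold without cGR8. Col1a1 overlapped at 0.19, 2.37 and 2.00 in myoblasts and 2.19, -0.16 and -0.82 in the lines (adjusted p = 0.42). Without myoblast replicates 1 and 3, 21 glycoprotein and proteoglycan genes were higher and 2 lower.

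Contractile and stress-responsive genes were also mostly higher. Of 29 targets of YAP-TEAD and SRF, 20 were higher and 2 lower (median log2 change 2.00, or 1.74 with bounds). These targets include Tpm1 and Tpm2, also counted in the thin filament list, and Ankrd1, given above with the sarcomere. Acta2, smooth muscle actin, read 7.53, 8.37 and 7.74 in myoblasts and 3.23, 1.40 and 2.40 in the lines, 46.4-fold higher (adjusted p = 7.1e-08), and Axl, a receptor kinase, was 45.6-fold higher. Cnn1, smooth muscle calponin, read -1.67, -1.32 and -2.03 in myoblasts and 3.47, 1.17 and 1.89 in the lines, 14.4-fold lower (adjusted p = 0.011). Its call was lost in some settings, among them without cGR8, where the fold was 9.22, and the fold was 11.3 with replicate 2 alone. Of 23 immediate early genes, 13 were higher and 3 lower (1.71). Nr4a2, an orphan receptor, was 73.8-fold higher and Fosl1, an AP-1 subunit, 70.3-fold higher. The smooth muscle marker sum, mostly Acta2 and Des, was also higher in the myoblast samples, and their part in the result was not tested.

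Cytokine and chemokine genes were higher in 23 of 32 and lower in 1 (median log2 change 3.36, or 2.84 with bounds). Csf1, the macrophage growth factor, read 5.62, 6.00 and 5.62 in myoblasts and -0.50, -1.81 and -1.60 in the lines, 133-fold higher (adjusted p = 3.6e-09). Ccl2, the monocyte chemokine, read 1.80, 5.18 and 5.49 in myoblasts and -1.12, -6.25 and -5.53 in the lines, 352-fold higher (adjusted p = 6.5e-06), with replicate 1 lowest among myoblasts and cGR8 highest among lines. Its fold was 179 without RD1, 230 without E14tg2 and at least 434 without cGR8, and 796 and 221 without myoblast replicates 1 and 3. Some leukocyte genes were higher in the same cultures: Lyz1, lysozyme of macrophages, read 4.97, 0.95 and 0.71 in myoblasts and -3.40, -5.82 and -6.20 in the lines, and Tyrobp, a myeloid adaptor, 3.22, 1.95 and -0.91 in myoblasts and -5.74, -6.55 and -6.24 in the lines. Both were highest in myoblast replicate 1, and the part of leukocytes in the cytokine result was not tested. Lyz1 was 163-fold higher, at least 113-fold without cGR8 and 62.6, 253 and 274-fold without myoblast replicates 1, 2 and 3. Not all leukocyte markers were higher: Coro1a was called 4.29-fold lower (adjusted p = 0.018) with groups that overlapped. Ptprc and Cd68 overlapped and were not called. Among 41 genes of antigen presentation and interferon response, 8 were higher and 12 lower (-0.24), next to 17.8% higher and 20.1% lower of all genes tested. B2m, the light chain of class I molecules, read 4.70, 4.91 and 4.69 in myoblasts and 1.91, 1.23 and 2.12 in the lines, 8.07-fold higher (adjusted p = 4.2e-07), and Sting1, an adaptor of cytosolic DNA sensing, was 19.3-fold higher. Ifitm1, an antiviral membrane protein, read -2.07, -2.58 and -2.99 in myoblasts and 6.70, 6.06 and 6.18 in the lines, 465-fold lower (adjusted p = 2.2e-10). Oas1a was 55.2-fold lower, or 91-fold without myoblast replicate 1.

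Most mitosis genes did not pass the test, while many replication genes were lower in myoblasts. Of 49 mitosis genes, 0 were higher (0 at an unadjusted p under 0.05) and 3 lower by limma (median log2 change -0.75), where 11 were lower on the authors' values and 15 in a fit of these 2 groups alone. The 3 were Ccnf, Kif20b and Pttg1. Ccnf, an F-box cyclin, was 4.93-fold lower (adjusted p = 0.0011), the Kif20b call was lost on leaving out any sample and the Pttg1 call without RD1, E14tg2 or myoblast replicate 3. Mki67, the proliferation marker, read 5.69, 5.55 and 5.20 in myoblasts and 4.96, 5.14 and 5.02 in the lines and was not called (adjusted p = 0.73). Of 48 replication genes, 23 were lower and 1 higher (-1.0). That count was 15 without myoblast replicate 3 and 7 with replicate 2 alone. Orc1, of the origin recognition complex, read -2.60, -2.52 and -2.45 in myoblasts and 0.96, 1.55 and 1.48 in the lines, 14.5-fold lower (adjusted p = 1.4e-05), Mcm10 was 4.64-fold lower and Rfc5, a clamp loader subunit, 4.53-fold lower. Prim2, a primase subunit, was the 1 riser, 12.4-fold higher (adjusted p = 7.2e-07). Among inhibitors, cyclins and the Rb family, 12 of 32 were higher and 3 lower (0.68). Cdkn1a, the p21 inhibitor, read 5.11, 6.38 and 5.94 in myoblasts and 2.49, 1.65 and 2.50 in the lines, 12.1-fold higher (adjusted p = 8.9e-06). Cdkn2b, p15, read 3.76, 3.51 and 3.74 in myoblasts and -0.85, -1.75 and -2.92 in the lines, 45.7-fold higher (adjusted p = 1.0e-08), and Cdkn2c, p18, was 97.2-fold higher, or at least 38.6-fold without RD1. Ccne1, cyclin E1, read 4.37, 3.95 and 3.93 in myoblasts and 6.03, 6.37 and 6.33 in the lines, 4.47-fold lower (adjusted p = 0.0016).

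Splicing regulators were called in both directions, next to 17.8% higher and 20.1% lower of all genes tested. Of 28 tested, 9 were higher and 7 lower (median log2 change 0.13). Rbm24, a splicing factor of heart and muscle, read 4.11, 4.50 and 4.07 in myoblasts and -3.31, -5.88 and -6.31 in the lines, 671-fold higher (adjusted p = 1.7e-10), or at least 454-fold without cGR8. Rbfox1, a splicing factor of muscle and neurons, was 237-fold higher (adjusted p = 3.5e-10), or at least 203-fold without cGR8. Esrp1, the epithelial splicing factor, read -3.29, -3.91 and -2.96 in myoblasts and 2.20, 1.36 and 1.12 in the lines, 30.8-fold lower (adjusted p = 5.1e-09). Srsf3 and Son, general factors, were not called, at log2 changes of -0.90 and -0.03. Of 81 cytosolic ribosomal proteins, 0 were higher by limma (1 at an unadjusted p under 0.05) and 4 lower (median log2 change -0.40), and the 4 were Rpl10l, Rpl39l, Rps4l and Rpl3l, paralogs of standard subunits. Rpl10l read -5.32, -4.70 and -5.58 in myoblasts and 2.02, 3.92 and 3.62 in the lines, at least 256-fold lower (adjusted p = 1.3e-07), and Rpl39l was 44.2-fold lower. The standard members Rpl35, Rps20 and Rps14 were near the top of the scale in all samples, at log2 changes of -0.24, -0.29 and -0.27, close to the median of all genes.

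**Figure D5:**
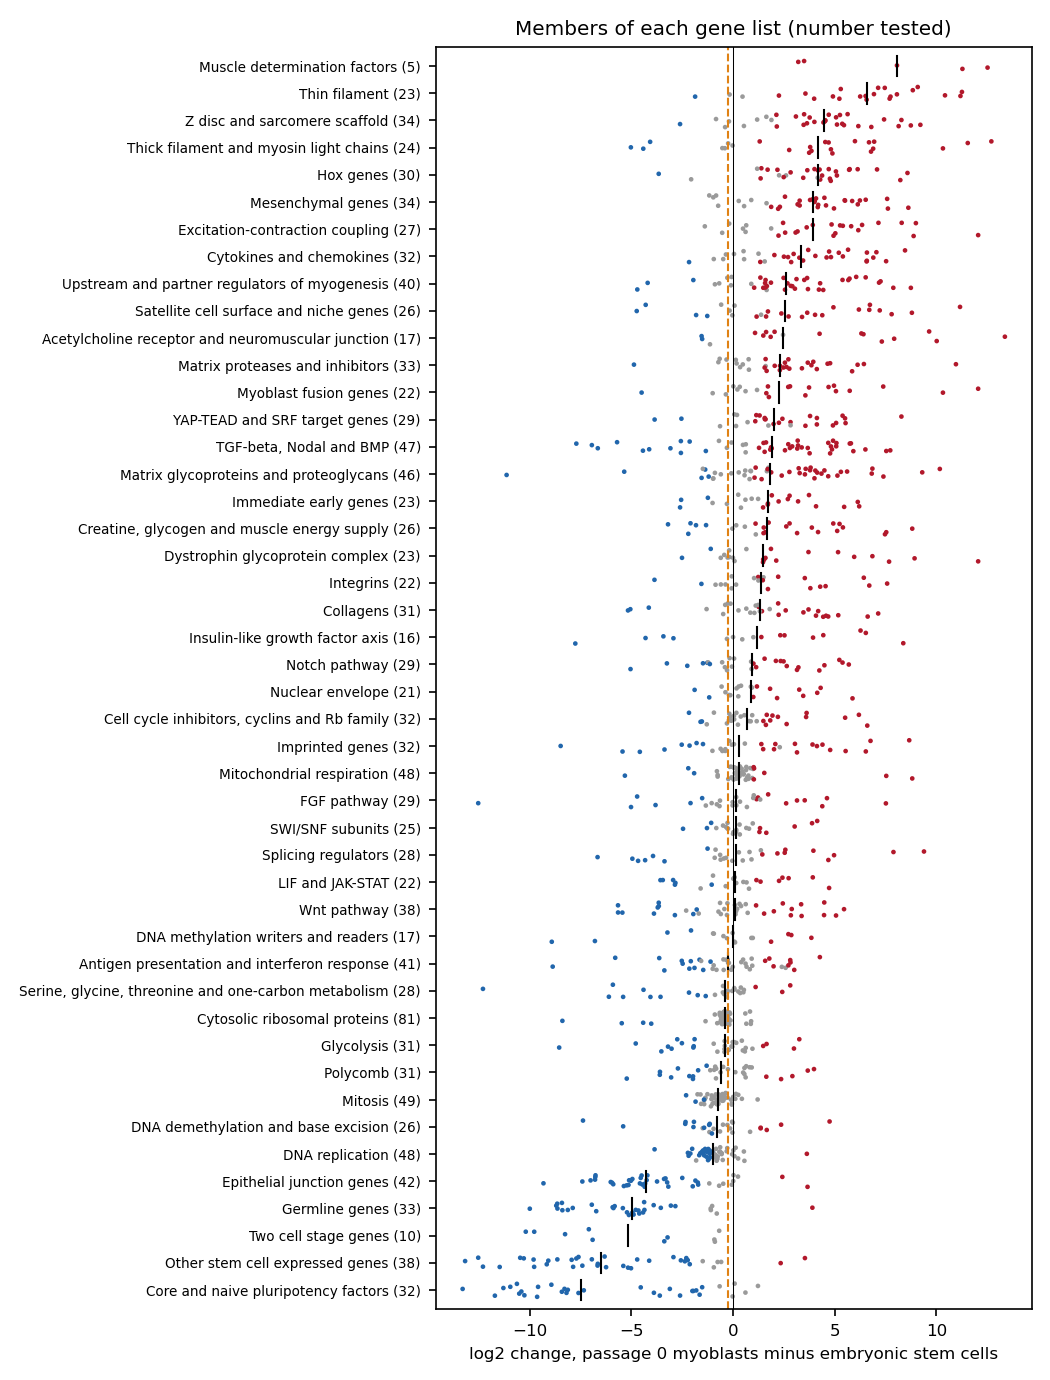
Log2 change (passage 0 myoblasts minus embryonic stem cells) of every tested member of each gene list, with the number tested in brackets; lists are ordered by their median. Red members were called higher, blue lower and grey not called; black bars are list medians, running from -7.46 for core pluripotency factors to 8.06 for muscle determination factors, and the dashed line is the median of all genes tested, -0.26.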

How the data were processed

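RNA of 3 passage 0 myoblast samples and 3 embryonic stem cell lines was labelled with Cy3 and hybridised to 7 Agilent arrays in 1 colour. The authors deposited scanner files in which, per the file headers, Feature Extraction 10.7.3.1 gives a background-corrected intensity, background and outlier flags for each spot, and probe positions on mm9; they also deposited a table of log2 values, used here as an alternative because its normalization is not given in the sources used here. From the intensities, log2 values minus each array's 75th percentile over non-control spots were computed, leaving out outlier spots and averaging repeated spots; a gene is its brightest probe. limma 3.58.1 (R 4.3.3) was fitted to the 7 groups of the series, so that they share 1 estimate of spread, with Benjamini-Hochberg adjustment over the 22384 genes tested, and was tested on simulated data. The number of arrays limits the precision.

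The comparison, the gene lists and the naming rules were chosen with earlier results of these data known, so no list is independent evidence of its direction. The named genes are the 10 largest changes each way measured in both groups, the 10 largest bounds each way, leading called and uncalled members of each list, and a fixed set of regulators. Alternatives changed the background correction, normalization, filter, probe choice, repeat array, samples in the fit, slide or replicate block, test and samples left out; myoblast replicate 2 alone was added after seeing the data. Gene names came from RefSeq accessions where they matched. Some genes that the naming rules select are not reported here.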

Additional observations from a re-analysis of the deposited data

How the results depend on the processing

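The direction split of all calls held within 1.5 times under most alternatives: 3291 to 4234 genes were higher and 3335 to 5080 lower across background correction, normalization, filter, probe choice, repeat array, fit and slide block, against 3990 and 4498. Demanding signal above background in both groups gave 2642 higher and 2694 lower, and testing against the 2-fold threshold itself gave 2231 and 2338. Myoblast replicate 2 alone gave 3222 higher and 2974 lower. Leaving out 1 sample in turn gave 3634 to 3973 higher and 4054 to 4345 lower. Over genes above background in all samples, deviations from the group means correlated at 0.096, -0.096 and -0.148 between same-numbered myoblast and stem cell samples. Differently numbered samples gave -0.284 to 0.366, so these values cannot tell what the replicate numbers share. With the replicate block the counts were 4044 and 4568. Of the calls, 47.0% were higher, 49.7% on the authors' values and 50.7% after quantile normalization, where more genes were higher than lower. Lists with more members higher than lower numbered 38, within 1.5 times of that in all alternatives. Sign changes among named genes were Synm, -2.60 here but 0.76 with normexp background correction and 0.78 on the authors' values, Brdt, -0.80 but 1.09 as the mean over probes, and Nanog, 1.23 but -5.94 as the mean over probes and -13.11 by the brightest probe over these 2 groups; Synm and Nanog probes disagree, and the cause was not tested. Of 265 named calls, 225 held in every alternative, 33 were lost in the 2-fold threshold test and 22 with replicate 2 alone, and on leaving out 1 sample the fold or bound of 45 moved by over 1.5 times, 23 of them without myoblast replicate 1, and for 40 a fold became a bound, 23 of them without cGR8. Probes near background limit the fold of genes given as bounds.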

Other observations

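Long noncoding RNAs were called about as often as all genes tested. Of 463 tested, 91 (19.7%) were higher in myoblasts and 92 (19.9%) lower, next to 17.8% higher and 20.1% lower of all genes. Hoxa11os, the antisense RNA at Hoxa11, read 4.75, 4.86 and 4.60 in myoblasts and -2.67, -3.42 and -2.66 in the lines, 201-fold higher by limma (adjusted p = 1.3e-09). Platr10, a transcript of pluripotent cells, read -7.03, -7.00 and -7.18 in myoblasts, not well above background, and 1.97, 1.65 and 1.95 in the lines, at least 104-fold lower (adjusted p = 2.3e-09). Morrbid, a regulator of myeloid cell survival, was 37.4-fold higher (adjusted p = 0.0007). Protein-coding genes were called higher in 21.9% and lower in 21.5% of 14510 tested, intergenic RNA regions named by position only in 9.50% and 17% of 2832, and pseudogenes in 5.86% and 19.2% of 307. These genes were chosen after their values were seen.

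Chromosome 8 stood apart in the stem cell lines. Each line was set against the mean of the other 2 lines, so the values of the lines are not independent. Over the 1006 chromosome 8 genes above background in all 6 samples, the median difference was 0.22 log2 units in E14tg2. It was -0.18 in cGR8, whose reference includes E14tg2, and -0.06 in RD1. All other chromosomes lay between -0.10 and 0.11 in each line. Of the 1234 genes tested on that chromosome, 199 were higher in myoblasts and 319 lower, and 191 and 267 without E14tg2. Over all genes, 3990 of 22384 tested (17.8%) were higher and 4498 (20.1%) lower. Without E14tg2 these counts were 3797 and 4243 of the 23216 genes tested in that setting.

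Markers of extraembryonic cells also differed. The 16 primitive endoderm markers summed to 574, 666 and 633 in the myoblasts and 169 to 236 in the lines, with 7 of the 13 tested members higher and 4 lower. Sparc alone gave 87.4% to 90.0% of the myoblast sums, and without it they were 72.5, 74.4 and 63.0 in the myoblasts and 36.6, 68.9 and 72.4 in the lines. Of the lineage factors, Gata6 was called lower with groups that overlapped. Gata4 also overlapped and was not called by limma (adjusted p = 0.065). Sox17 was at least 3.51-fold lower by limma (adjusted p = 0.00064). Hnf4a was at least 27.1-fold lower (adjusted p = 2.8e-07), or at least 41.5-fold without cGR8. Of 7 trophoblast markers tested by limma, 3 were higher and 3 lower, and 1 was not called. Gata3 was 22.4-fold, Prl3d1 3.92-fold and Plac1 at least 3.66-fold higher (adjusted p = 2.5e-06, 0.00026 and 3.8e-05). Eomes was at least 13.6-fold lower, and Ascl2 was 43.0-fold lower. Tfap2c, a trophoblast and germ cell factor, read -5.80, -5.77 and -5.55 in myoblasts and 2.93, 3.29 and 2.82 in the lines, at least 233-fold lower (adjusted p = 8.9e-11). Otx2, a factor of the primed epiblast, was highest in cGR8 at 5.62 against 2.98 and 3.41 in RD1 and E14tg2.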
